A study of Homo sapiens with 12 samples.

Results

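Type I interferon response genes were followed in the established human glioma line U-87 MG across 4 groups of expression arrays. The set holds 32 interferon-stimulated genes that were taken by symbol from a list chosen with earlier results of these data known. For each gene the brightest probe set on average, among those with exactly 1 gene symbol, was used. Of the 32 genes, 31 were measured this way, out of 19775 genes in all. STAT2, a subunit of the interferon-activated transcription factor ISGF3, had no such probe set and was not analysed here. No filter on low values was applied, so all 31 measured genes entered every comparison.

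Type I interferons bind a receptor of IFNAR1 and IFNAR2, whose kinases JAK1 and TYK2 signal to the transcription factor complex ISGF3. ISGF3, of which IRF9 is the DNA-binding subunit, binds the interferon-stimulated response element (ISRE) in the promoters of antiviral genes. Sensors of foreign RNA such as RIG-I (encoded by RIGI, formerly DDX58) and MDA5 (encoded by IFIH1) start the loop by inducing interferon, with NF-kB and IRF factors acting together on the interferon beta gene. Many of these genes keep a basal level in cells that have met no virus.

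The cells had been stably transfected with sh-control RNA (shControl) or with sh-p105 RNA (shp105), a hairpin against the NF-kB precursor p105, the product of NFKB1. Each line received DMSO, the vehicle, or 100 uM temozolomide (TMZ), a DNA-methylating drug used against glioma, and RNA was taken after 16 h. The 4 groups, shControl with DMSO, shControl with TMZ, shp105 with DMSO and shp105 with TMZ, held 3 arrays each, so every group mean here has n = 3. The submitters describe the lines as proficient and deficient in NF-kB. NF-kB activity was not measured here, and the level of NFKB1 is given below. The labels call the replicates biological but name neither clones, pools nor separate transfections, so the p-values measure the spread between these samples, and each line stands for 1 hairpin. Values are log2 levels of bulk RNA, in which fewer expressing cells and less RNA per cell cannot be told apart.

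NFKB1 read 7.40, 7.23 and 7.34 in the shControl DMSO arrays and 7.17, 7.27 and 7.16 in the shp105 DMSO arrays. With TMZ it read 7.50, 7.45 and 7.30 in shControl and 7.14, 7.22 and 7.14 in shp105 cells. The line difference was -0.12 (SE 0.07, limma adjusted p = 0.260) in DMSO and -0.25 (SE 0.07, limma adjusted p = 0.0204) in TMZ, so only the latter passed. Array medians lay between 5.04 and 5.09. The hybridization spike-ins, added after the RNA was labelled, differed with the groups. Their mean was 10.63 (SD 0.05) in shControl and 11.13 (SD 0.10) in shp105 cells with DMSO, and 10.95 (SD 0.09) and 11.32 (SD 0.13) with TMZ. RNA integrity was read from the 3' probe set of GAPDH minus its 5' probe set, which was 0.11 higher in shp105 cells with DMSO and 0.10 higher with TMZ. The exact 2-sided permutation p was 0.1 for both, and 3 arrays against 3 cannot give a smaller one. For ACTB it was 0.21 higher with TMZ (exact p = 0.1) and 0.05 higher with DMSO (exact p = 0.6). Of 8 mesenchymal and glial markers 6 lay above the control probe sets for absent sequences on all arrays, among them VIM and CD44, while the astrocyte genes S100B and AQP4 did on no array. Of these 8, CHI3L1 was higher in shp105 cells by 2.21 in DMSO and 2.96 in TMZ, and CD44 (-0.25 and -0.32) and FN1 (-0.41 and -0.37) were lower, all called. The epithelial marker EPCAM was also lower (-0.39 and -0.45), and TCF4, of the plasmacytoid dendritic cell list, was higher in DMSO (0.30). Of 6 measured leukocyte markers, PTPRC, CD14 and LYZ lay above those controls on no array, and CD3E, ITGAM and HLA-DRA on all arrays. The mean level of the 6 was 4.83 to 4.94 in shControl and 4.50 to 4.62 in shp105 arrays. Of the 6 only HLA-DRA, an antigen presentation gene, was called between the lines, at -1.88 in DMSO and -1.66 in TMZ. The part of the spike-ins, the GAPDH signal and these markers in the results that follow was not tested, apart from a fit given below that has the spike-in mean as a covariate.

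The genes were listed as interferon-stimulated, so a high share of ISRE matches among them is no finding of these arrays. The promoters of 4 of them are printed because these genes differed between the lines in opposite directions. Each is the stretch of 250 bases before the RefSeq gene start (GRCh38.p14), written 5' to 3' on the gene's strand. Capitals mark matches to the ISRE core GAAANNGAAA, to the gamma-activated sequence TTCNNNGAA (GAS), and to the NF-kB consensus motif, searched on both strands. IFIT1 (chr10:89392373-89392622, plus strand) and OAS3 (chr12:112938224-112938473, plus strand) were higher in shp105 cells, while IFI44L (chr1:78620198-78620447, plus strand) and IRF1 (chr5:132490774-132491023, minus strand) were lower.
IFIT1: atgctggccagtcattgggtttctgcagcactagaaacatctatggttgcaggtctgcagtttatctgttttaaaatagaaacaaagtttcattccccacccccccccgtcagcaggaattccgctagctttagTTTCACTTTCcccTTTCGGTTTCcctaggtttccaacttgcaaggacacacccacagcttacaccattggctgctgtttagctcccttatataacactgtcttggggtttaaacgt
OAS3: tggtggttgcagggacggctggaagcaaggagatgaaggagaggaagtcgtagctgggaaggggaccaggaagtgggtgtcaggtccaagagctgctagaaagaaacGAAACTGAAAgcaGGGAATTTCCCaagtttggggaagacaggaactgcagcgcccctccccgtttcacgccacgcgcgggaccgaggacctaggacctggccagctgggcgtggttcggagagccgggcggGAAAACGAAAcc
IFI44L: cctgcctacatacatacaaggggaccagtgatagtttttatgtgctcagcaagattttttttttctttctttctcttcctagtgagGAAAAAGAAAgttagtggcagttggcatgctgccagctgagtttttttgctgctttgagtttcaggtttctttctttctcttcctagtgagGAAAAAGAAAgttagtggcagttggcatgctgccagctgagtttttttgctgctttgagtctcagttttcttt
IRF1: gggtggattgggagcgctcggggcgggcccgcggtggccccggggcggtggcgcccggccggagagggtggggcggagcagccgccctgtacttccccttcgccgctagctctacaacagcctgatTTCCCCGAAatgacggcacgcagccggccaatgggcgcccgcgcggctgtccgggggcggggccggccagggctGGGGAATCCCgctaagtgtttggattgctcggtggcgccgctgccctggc
IFIT1 holds a pair of ISRE matches at -116 to -107 and -103 to -94 from the gene start. In OAS3, ISRE matches lie at -143 to -134 and -12 to -3, and overlapping NF-kB matches on both strands span -130 to -120. IFI44L holds ISRE matches at -164 to -155 and -73 to -64. IRF1 holds no ISRE match, but a GAS match at -124 to -116 and an NF-kB match at -50 to -41.

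The RefSeq promoter table held 26 of the 32 genes. IFIT2, MX2, OAS2, OASL, IRF7 and USP18 had no entry. An ISRE match lay upstream of 17 of these 26 genes, 65.4%, against 3.71% of all genes in the table and 3.02% of all its promoters. For GAS it was 8 of 26 genes (30.8%, against 8.09% of all genes) and for the NF-kB motif 6 of 26 (23.1%, against 6.28%). Among genes called higher between the lines 6 of 8 had an ISRE match, among those called lower 2 of 4, and among those not called 9 of 13. The NF-kB motif was matched in 3 of the 8 higher genes (OAS3, BST2, XAF1), in 3 of the 4 lower genes (IRF1, RIGI, IFIH1) and in 0 of the 13 genes not called. A match describes letters in this window only, and the motif thus occurred among genes of both directions.

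**Figure D1:**
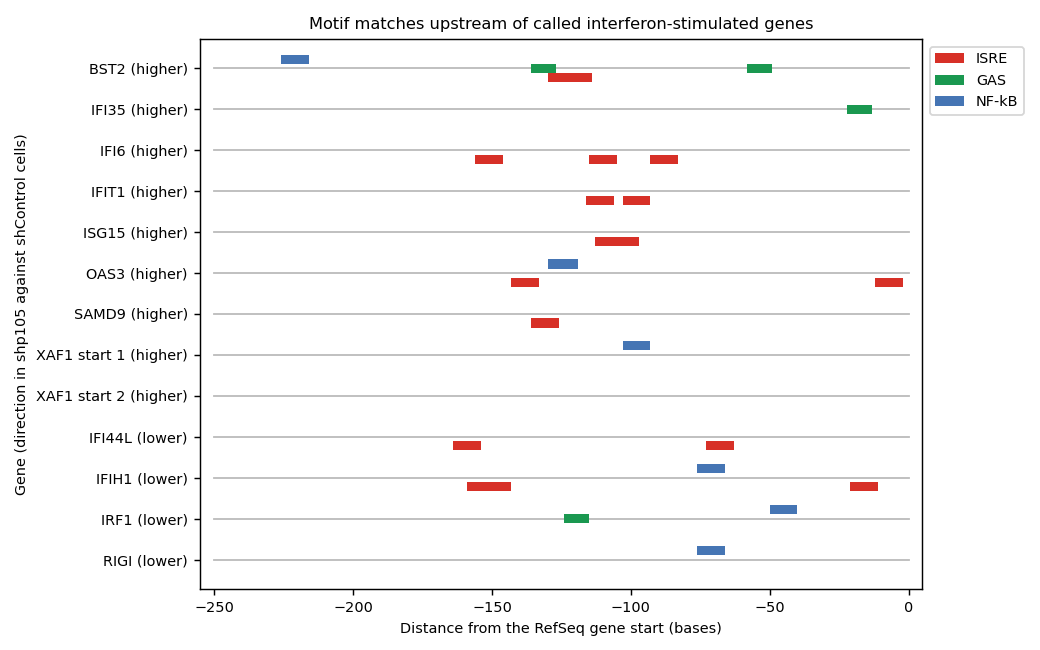
Matches to 3 motifs in the 250 bases before the RefSeq gene start, for the called genes of the set that have a promoter entry. The horizontal axis is the distance from the gene start in bases, rows are genes with their direction in shp105 against shControl cells (XAF1 has 2 starts), and bars are matches in red for ISRE, green for GAS and blue for NF-kB. ISRE matches lie upstream of IFIT1, OAS3 and SAMD9, which were higher, and of IFI44L and IFIH1, which were lower.

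Between the lines the interferon-stimulated genes split, with more members higher than lower in shp105 cells. In DMSO 6 of 31 were higher, 3 were lower and 22 did not pass. In TMZ 8 were higher, 4 were lower and 19 did not pass. A gene is called where limma's moderated test over all 19775 genes gave a Benjamini-Hochberg adjusted p under 0.05. Of all genes 8.34% were called higher and 11.6% lower in DMSO (19.9% in either direction), and 10.1% higher and 11% lower in TMZ (21.1% in either direction). The set's shares in either direction were 29% and 38.7%. These shares were not tested against those of all genes. The members were chosen with earlier results of these data known, and all genes were not matched to them for level. The median difference of the 31 genes was 0.04 in DMSO and 0.14 in TMZ, beside -0.01 over all genes in either treatment. Differences ran from -0.68 to 0.62 in DMSO and from -0.49 to 0.79 in TMZ.

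The comparisons in DMSO and in TMZ use different arrays, but the same lines and a shared estimate of the spread. They are therefore not independent replications of each other. MX2, OAS3, IFIT1 and SAMD9 were called higher in both, and IRF1, IFI44L and IFIH1 were called lower in both. BST2 and XAF1 passed in DMSO but not in TMZ, and IFIT2, ISG15, IFI6, IFI35 and RIGI passed in TMZ but not in DMSO. No member was called in opposite directions, and 25 of 31 had the same sign under both treatments. The share of all genes with such agreement is not given here, so it cannot be read as a trait of the set. The arrays of the lines did not overlap for 9 higher and 5 lower members in DMSO, where 15.1% of all genes were so separated upward and 20.8% downward. In TMZ it was 11 and 6 members, against 17.2% and 18.5% of all genes. In a fit with the spike-in mean as a covariate, 0 of the 9 calls in DMSO and 1 of the 12 in TMZ, that of MX2, passed. That fit called 523 genes in DMSO (down from 3937) and 1045 in TMZ (down from 4166), and no called member changed sign in it. The spike-in mean differed with the line, so the fit can hardly tell line and covariate apart. Over all alternatives, this fit included, the DMSO difference stayed between 0.35 and 0.42 for SAMD9 and between -0.74 and -0.60 for IFI44L. Other differences shrank with the covariate, as for IFIT2 in TMZ (0.13, against 0.48 without it).

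**Figure D2:**
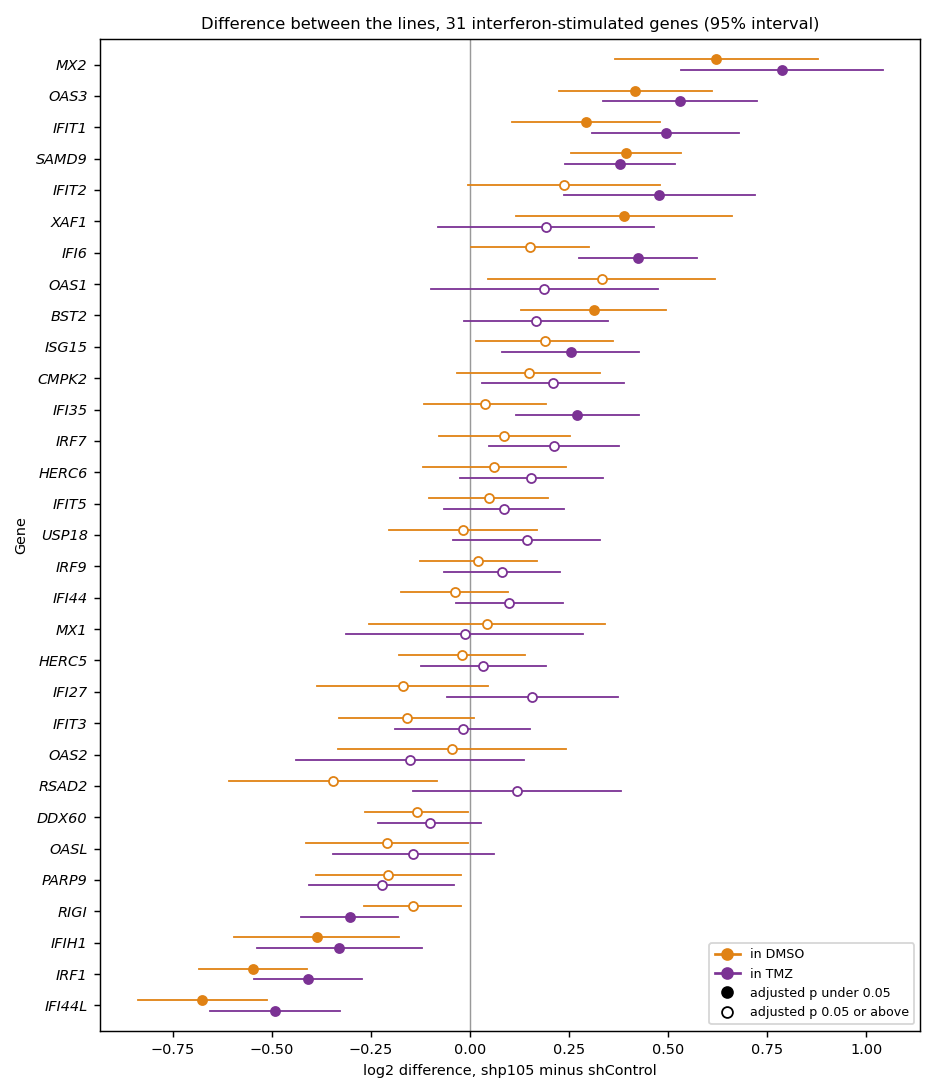
Differences between the lines for the 31 measured genes, as log2 differences of shp105 minus shControl on the horizontal axis with 95% intervals, in orange for DMSO and in purple for TMZ. Filled points have an adjusted p under 0.05, and MX2 stands at the top at 0.62 and 0.79 and IFI44L at the bottom at -0.68 and -0.49.

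**Figure D3:**
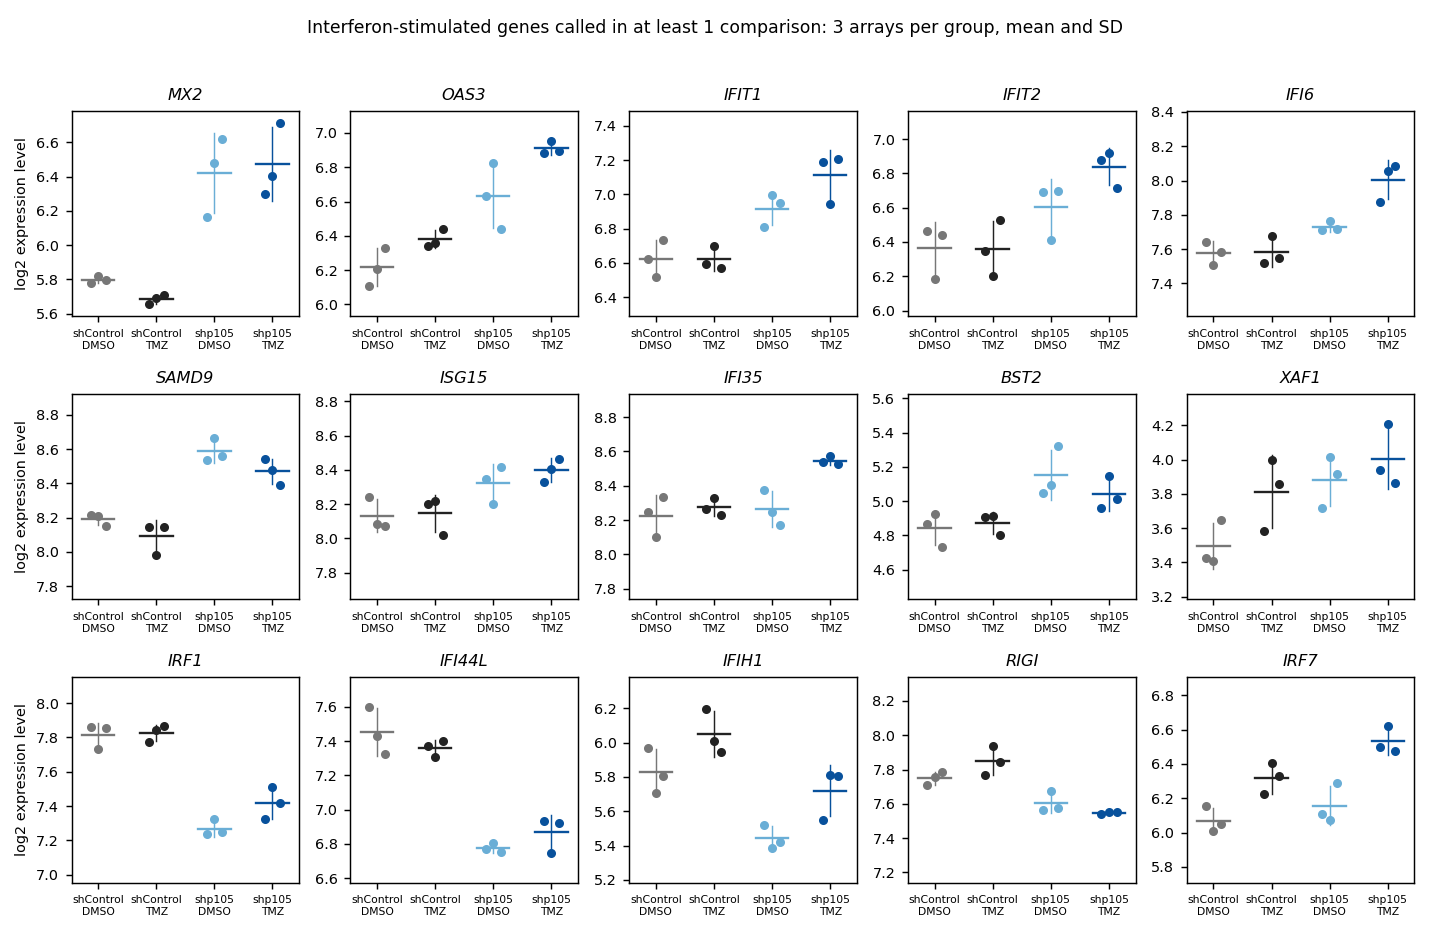
Log2 levels of the 15 genes called in at least 1 comparison, 1 panel per gene with its own axis range, with a point per array, a horizontal line at the mean of 3 arrays and a vertical line for 1 SD. The shp105 arrays lie above all shControl arrays for MX2, OAS3, IFIT1 and SAMD9, and below them for IRF1 and IFI44L.

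Among the transcription factors, IRF1 was lower in shp105 cells. IRF1 activates interferon and antigen presentation genes and is itself a textbook NF-kB target. It read 7.86, 7.73 and 7.85 in shControl and 7.24, 7.32 and 7.25 in shp105 cells with DMSO. With TMZ the values were 7.77, 7.84 and 7.86 in shControl and 7.32, 7.51 and 7.42 in shp105 cells. All 6 shp105 arrays lay below all 6 shControl arrays. The difference was -0.55 (SE 0.06, limma adjusted p = 6.05e-05) in DMSO, a 1.46-fold lower level, and -0.41 (SE 0.06, limma adjusted p = 0.000545) in TMZ. Both calls held in all 12 fits that left out 1 array. The other IRF1 probe set gave larger differences, -0.82 in DMSO and -0.84 in TMZ (SE 0.09 each), and with the mean of both the TMZ difference was -0.63. IRF9, the DNA-binding subunit of ISGF3, lay between 8.09 and 8.34 on all arrays and differed by 0.02 in DMSO and 0.08 in TMZ, with 95% intervals of -0.13 to 0.17 and -0.07 to 0.23. IRF7, the factor that amplifies interferon alpha production, differed by 0.09 in DMSO (95% interval -0.08 to 0.25) and by 0.21 in TMZ (95% interval 0.05 to 0.38, limma adjusted p = 0.0663), which did not pass.

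Of 3 genes of cytoplasmic RNA sensing, IFIH1 was lower in shp105 cells under both treatments, RIGI was lower in TMZ and DDX60 was not called. MDA5, encoded by IFIH1, detects long double-stranded RNA. IFIH1 read 5.97, 5.70 and 5.81 in shControl and 5.52, 5.38 and 5.42 in shp105 cells with DMSO, so the groups did not overlap. With TMZ it read 6.20, 6.01 and 5.94 in shControl and 5.55, 5.81 and 5.80 in shp105 cells, again without overlap. The difference was -0.39 (SE 0.10, limma adjusted p = 0.0131) in DMSO and -0.33 (SE 0.10, limma adjusted p = 0.0285) in TMZ. The DMSO call was lost without shControl_DMSO replicate 1 (-0.31, limma adjusted p = 0.0579). The TMZ call was lost without shp105_TMZ replicate 1 (-0.24, limma adjusted p = 0.103), shControl_TMZ replicate 1 (-0.26, limma adjusted p = 0.117) or shControl_TMZ replicate 2 (-0.35, limma adjusted p = 0.0542). It was also lost with the mean of the gene's probe sets, the others of which are dim (-0.17, limma adjusted p = 0.0789; -0.20 in DMSO), and with only the TMZ groups in the fit (limma adjusted p = 0.0645). With the spike-in covariate the values were -0.22 in DMSO and -0.20 in TMZ.

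RIG-I, encoded by RIGI, recognises short RNA with a triphosphate end. RIGI read 7.77, 7.94 and 7.85 in shControl and 7.54, 7.55 and 7.55 in shp105 cells with TMZ, a difference of -0.30 (SE 0.06, limma adjusted p = 0.00211) that held without any 1 array. In DMSO the groups did not overlap either, at 7.71 to 7.78 against 7.56 to 7.67, but the difference of -0.14 (SE 0.06) did not pass limma's test. The probe set that stands for RIGI has the suffix that Affymetrix gives to sets with probes shared with other sequences. The other RIGI probe sets differed by -0.06 and -0.38 in DMSO, the latter called (limma adjusted p = 0.0128), and by -0.25 and -0.35 in TMZ, all in the same direction. DDX60, a helicase that promotes RIG-I signalling, lay between 5.30 and 5.60 on all arrays and was not called (-0.13 in DMSO, -0.10 in TMZ).

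Of the 2'-5' oligoadenylate synthetases, which make the activator of RNase L, OAS3 was higher in shp105 cells. OAS1, OAS3 and OAS2 lie side by side on chromosome 12, with OAS3 at 112938474 to 112973251. OAS3 read 6.11, 6.21 and 6.33 in shControl and 6.63, 6.82 and 6.44 in shp105 cells with DMSO. Under TMZ the OAS3 values were 6.34, 6.36 and 6.44 in shControl and 6.88, 6.95 and 6.89 in shp105 cells. The groups did not overlap under either treatment. The difference was 0.42 (SE 0.09, limma adjusted p = 0.00542) in DMSO and 0.53 (SE 0.09, limma adjusted p = 0.00108) in TMZ, 1.34-fold and 1.44-fold, and both held without any 1 array. A dim probe set of OAS3 differed by 0.09 and -0.01, and the mean of both gave 0.25 and 0.26, still called. OAS1 and OAS2 had group means under 4.30, the highest value of the 27 control probe sets for absent sequences, so a difference in them could hardly be read. OASL, an OAS relative that supports RIG-I signalling, lay between 6.26 and 6.75 and was not called (-0.21 in DMSO, -0.14 in TMZ). With each probe set adjusted on its own, the other OASL probe set was called lower in DMSO (-0.26, SE 0.08, limma adjusted p = 0.0403) and differed by -0.24 in TMZ (limma adjusted p = 0.0598).

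The dynamin-like GTPase MX2, which blocks nuclear import of retroviral genomes, had the largest increase of the set. MX2 read 5.78, 5.82 and 5.80 in shControl and 6.16, 6.48 and 6.62 in shp105 cells with DMSO. Under TMZ the MX2 values were 5.65, 5.69 and 5.71 in shControl and 6.30, 6.40 and 6.71 in shp105 cells. The shControl arrays lay close together (SD 0.02 with DMSO, 0.03 with TMZ), while the shp105 arrays spread more (SD 0.23 with DMSO, 0.22 with TMZ). The difference was 0.62 (SE 0.12, limma adjusted p = 0.00245) in DMSO and 0.79 (SE 0.12, limma adjusted p = 0.000461) in TMZ, 1.54-fold and 1.73-fold. Both calls held without any 1 array. With the spike-in covariate the values were 1.08 (limma adjusted p = 0.0501) and 1.13 (limma adjusted p = 0.00785). MX1, its neighbour on chromosome 21 and the antiviral GTPase against influenza, had group means of 3.62 to 3.69, within the range of the absent controls.

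In the IFIT family, proteins that bind viral RNA and restrain its translation, IFIT1 and IFIT2 were higher in shp105 cells and IFIT3 and IFIT5 were not called. These 4 genes form a cluster on chromosome 10. IFIT1 read 6.62, 6.52 and 6.73 in shControl and 6.81, 6.996 and 6.95 in shp105 cells with DMSO. With TMZ it read 6.60, 6.70 and 6.57 in shControl and 7.19, 6.95 and 7.21 in shp105 cells, and all 6 shp105 arrays lay above all 6 shControl arrays. The difference was 0.29 (SE 0.08, limma adjusted p = 0.0302) in DMSO and 0.49 (SE 0.08, limma adjusted p = 0.00132) in TMZ, 1.23-fold and 1.41-fold. The DMSO call was lost without shp105_DMSO replicate 2 (0.25, limma adjusted p = 0.103), shp105_DMSO replicate 3 (0.28, 0.0896), shControl_DMSO replicate 1 (0.29, 0.0755) or shControl_DMSO replicate 2 (0.24, 0.116). The TMZ call held without any 1 array.

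IFIT2 read 6.35, 6.20 and 6.53 in shControl and 6.88, 6.92 and 6.72 in shp105 cells with TMZ, without overlap. Its difference there was 0.48 (SE 0.11, limma adjusted p = 0.00863), and with the spike-in covariate it was 0.13. In DMSO the groups overlapped and the difference of 0.24 (SE 0.11, limma adjusted p = 0.175) did not pass. The other IFIT2 probe set, with group means of 5.59 to 5.77, was called under neither treatment. It differed by 0.18 in TMZ (SE 0.10, limma adjusted p = 0.316) and by 0.08 in DMSO, with each probe set adjusted on its own. IFIT3, a partner of IFIT1, differed by -0.16 (95% interval -0.33 to 0.01) in DMSO and -0.02 (95% interval -0.19 to 0.15) in TMZ. IFIT5 differed by 0.05 and 0.09. The IFIT cluster thus held members with and without a call, and the difference between these genes was not tested.

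In the ISG15 system only ISG15 itself passed, and only in TMZ. ISG15 is a ubiquitin-like protein that is attached to other proteins, HERC5 is the ligase that attaches it, and USP18 removes it and dampens the interferon receptor. ISG15 read 8.20, 8.22 and 8.02 in shControl and 8.33, 8.404 and 8.47 in shp105 cells with TMZ, a difference of 0.25 (SE 0.08, limma adjusted p = 0.0393). In DMSO it differed by 0.19 (limma adjusted p = 0.128) and the groups overlapped. The TMZ call was lost without 6 of the 12 arrays. These were shp105_DMSO replicate 1 (limma adjusted p = 0.0527), shp105_TMZ replicates 2 (0.0841) and 3 (0.117), shControl_DMSO replicate 2 (0.0501), and shControl_TMZ replicates 1 (0.0613) and 3 (0.153). It was also lost with median centring (limma adjusted p = 0.0624), array weights (0.0552), only the TMZ groups in the fit (0.0624) and each probe set adjusted on its own (0.0571). USP18, HERC5 and HERC6, a relative of HERC5, differed by -0.02, -0.02 and 0.06 in DMSO and by 0.14, 0.03 and 0.15 in TMZ. A further HERC6 probe set was called lower in TMZ (-0.35, SE 0.09, limma adjusted p = 0.0155), opposite in sign to the one used, with all its group means (3.22 to 3.57) within the range of the absent controls.

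Of the other antiviral effectors, SAMD9 was higher and IFI44L was lower in shp105 cells under both treatments. SAMD9, a growth-restraining protein that also restricts poxviruses, read 8.22, 8.21 and 8.15 in shControl and 8.53, 8.66 and 8.56 in shp105 cells with DMSO. Under TMZ the SAMD9 values were 8.15, 7.98 and 8.14 in shControl and 8.54, 8.48 and 8.39 in shp105 cells. The difference was 0.39 (SE 0.06, limma adjusted p = 0.000884) in DMSO and 0.38 (SE 0.06, limma adjusted p = 0.00112) in TMZ, and its other probe set gave 0.33 and 0.48. IFI44L read 7.60, 7.43 and 7.33 in shControl and 6.77, 6.81 and 6.75 in shp105 cells with DMSO. Under TMZ the IFI44L values were 7.37, 7.30 and 7.40 in shControl and 6.93, 6.75 and 6.92 in shp105 cells. The difference was -0.68 (SE 0.07, limma adjusted p = 5.04e-05) in DMSO and -0.49 (SE 0.07, limma adjusted p = 0.000547) in TMZ, levels 1.60-fold and 1.41-fold lower. All 4 of these calls held without any 1 array, and the groups of both genes did not overlap. IFI44, the neighbour of IFI44L on chromosome 1, lay between 8.50 and 8.80 on all arrays and differed by -0.04 in DMSO and 0.10 in TMZ.

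IFI6 and IFI35 were called higher in shp105 cells under TMZ. IFI6, a mitochondrial and endoplasmic reticulum protein that inhibits apoptosis, read 7.52, 7.68 and 7.55 in shControl and 7.88, 8.06 and 8.08 in shp105 cells with TMZ. The difference was 0.42 (SE 0.07, limma adjusted p = 0.000802), which held without any 1 array, against 0.15 (limma adjusted p = 0.158) in DMSO. The DMSO arrays of IFI6 did not overlap either, at 7.51 to 7.64 in shControl and 7.71 to 7.76 in shp105 cells. IFI35, a leucine zipper protein, read 8.26, 8.33 and 8.23 in shControl and 8.54, 8.58 and 8.53 in shp105 cells with TMZ. The difference was 0.27 (SE 0.07, limma adjusted p = 0.0167), against 0.04 (limma adjusted p = 0.795) in DMSO. The IFI35 call was lost without shControl_TMZ replicate 1 (0.27, limma adjusted p = 0.0540) or replicate 3 (0.25, 0.0638), and its value with the spike-in covariate was 0.17.

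BST2 and XAF1 were called higher in DMSO. BST2, or tetherin, holds budding virus at the cell surface and read 4.87, 4.93 and 4.73 in shControl and 5.05, 5.09 and 5.32 in shp105 cells. The difference was 0.31 (SE 0.08, limma adjusted p = 0.0201), against 0.17 (limma adjusted p = 0.198) in TMZ. The call was lost without shp105_DMSO replicate 3 (0.23, limma adjusted p = 0.0804) or shControl_DMSO replicate 3 (0.26, 0.0848), and with only the DMSO groups in the fit (limma adjusted p = 0.0552). XAF1, a pro-apoptotic binding partner of XIAP, differed by 0.39 (SE 0.12, limma adjusted p = 0.0479). Its arrays, 3.43, 3.41 and 3.65 in shControl and 3.72, 4.02 and 3.91 in shp105 cells, all lay within the range of the absent controls. Leaving out any of 6 arrays raised its adjusted p to between 0.0601 and 0.155. These were shp105_DMSO replicates 2 and 3, shControl_DMSO replicates 1 and 2, shp105_TMZ replicate 1 and shControl_TMZ replicate 3. The mean of its 3 probe sets differed by 0.16 (limma adjusted p = 0.177), and the spike-in covariate left 0.17. Median centring, quantile normalization, array weights and each probe set adjusted on its own also ended the XAF1 call, with limma adjusted p from 0.0527 to 0.0600.

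The remaining effectors were not called between the lines. PARP9, an ADP-ribosyltransferase that works with DTX3L, differed by -0.21 in DMSO and -0.22 in TMZ (limma adjusted p = 0.117 and 0.0844). RSAD2 (viperin) and CMPK2, neighbours on chromosome 2, and IFI27 had group means within the range of the absent controls. In all, 7 of the 31 genes, MX1, OAS1, OAS2, IFI27, RSAD2, XAF1 and CMPK2, had no group mean above those controls, which ran from 2.33 to 4.30.

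Few interferon-stimulated genes were called in the response to TMZ at 16 h. In shControl cells limma called 0 of 31 genes, beside 0.369% of all genes, and 4 (12.9%) had an unadjusted p under 0.05, near the 11% of all genes, all 4 higher with TMZ. In shp105 cells it called 1, IRF7, which rose, beside 0.865% of all genes (0.647% higher), and 10 (32.3%) had an unadjusted p under 0.05, all higher, against 16.3% of all genes (9.59% higher). The median response of the 31 genes was 0.01 in shControl and 0.12 in shp105 cells, against 0.00 and 0.01 over all genes. Positive values were found for 20 and 24 of the 31 genes, against 48.8% and 54.6% of all genes. In shControl cells the TMZ arrays of 3 members lay above and of 4 below all DMSO arrays, where 9.21% and 11.1% of all genes were so separated. In shp105 cells it was 9 and 1 members, against 12.5% and 7.86% of all genes.

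IRF7 read 6.11, 6.07 and 6.29 in shp105 cells with DMSO and 6.50, 6.62 and 6.47 with TMZ. The TMZ arrays lay above the DMSO arrays by a difference of 0.37 (SE 0.07, limma adjusted p = 0.0461), 1.297-fold. In shControl cells it read 6.15, 6.01 and 6.05 with DMSO and 6.22, 6.40 and 6.33 with TMZ, also without overlap, and the difference of 0.25 (SE 0.07, limma adjusted p = 0.249) did not pass. The call in shp105 cells was lost in 11 of the 12 fits that left out 1 array, with adjusted p from 0.0546 to 0.151, and held only without shp105_DMSO replicate 3. It was also lost with median centring (limma adjusted p = 0.0627), array weights (0.0949), each probe set adjusted on its own (0.0948), only the shp105 groups in the fit (0.199) and the spike-in covariate (0.27, limma adjusted p = 0.367).

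HERC5 had the smallest p of the set in shControl cells. It read 8.65, 8.49 and 8.62 in shControl cells with DMSO and 8.87, 8.86 and 8.87 with TMZ, a difference of 0.28 (SE 0.07, limma adjusted p = 0.163). In shp105 cells it read 8.59, 8.44 and 8.67 with DMSO and 8.86, 9.02 and 8.83 with TMZ, a difference of 0.34 (SE 0.07, limma adjusted p = 0.0542). The groups did not overlap in either line, and neither difference passed. IFI6 and IFI35 differed by 0.27 and 0.28 in shp105 cells (limma adjusted p = 0.0791 and 0.0805) and by 0.00 and 0.05 in shControl cells. With genes below the median level left out, HERC5 was called in shControl cells, and HERC5, IFI6 and IFI35 in shp105 cells. IRF7 was below that level and was not in that fit. The share of all genes called in that fit is not given here, so these calls do not tell whether the set or all genes moved. IFIH1 differed by 0.22 and 0.28 in shControl and shp105 cells (limma adjusted p = 0.414 and 0.182). OAS3 differed by 0.16 and 0.28 (limma adjusted p = 0.532 and 0.157).

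**Figure D4:**
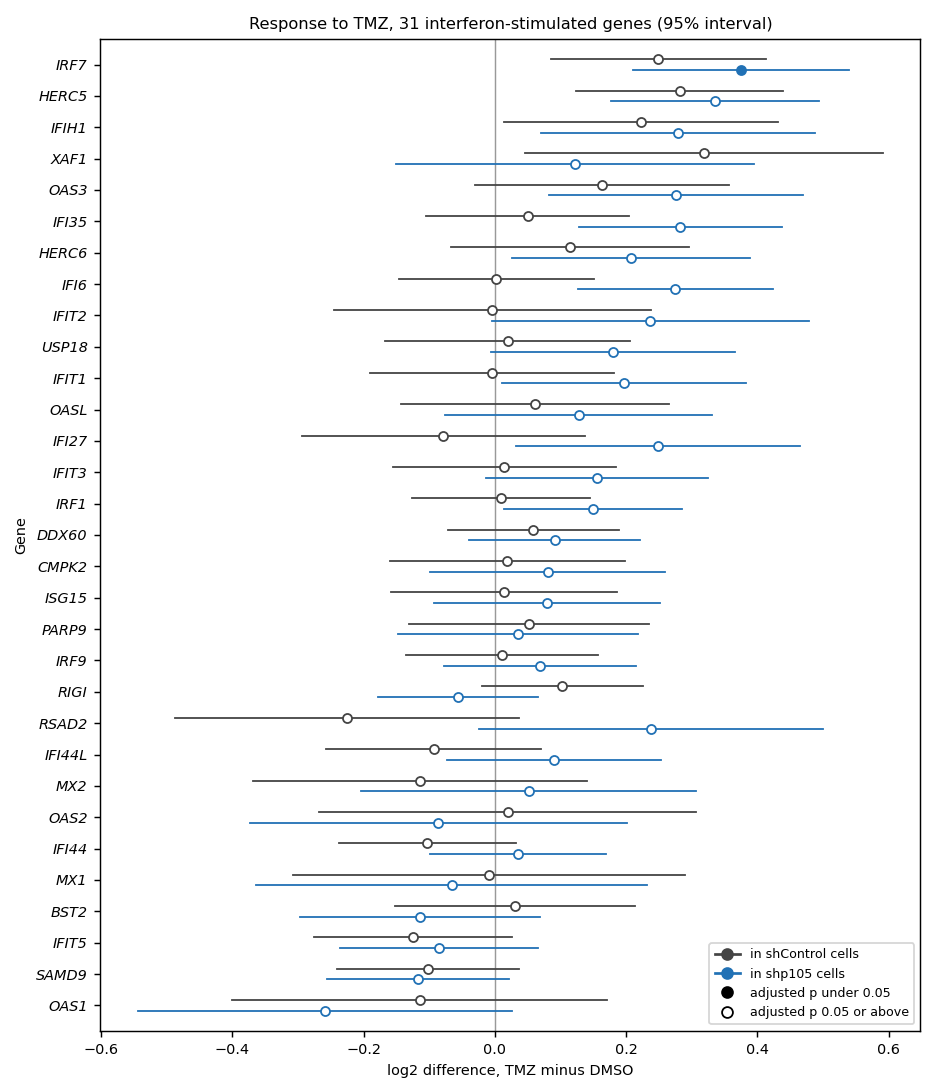
Responses to TMZ of the 31 measured genes, as log2 differences of TMZ minus DMSO on the horizontal axis with 95% intervals, in dark grey for shControl and in blue for shp105 cells. The single filled point, IRF7 in shp105 cells at 0.37, has an adjusted p under 0.05, and 24 of 31 points lie above 0 in shp105 cells.

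The response to TMZ was not shown to differ between the lines for any of these genes. Limma's test of the difference of responses called 0 of 31 members and 0% of all genes. An unadjusted p under 0.05 was found for 4 members, all with the larger value in shp105 cells, 12.9% beside 6.4% of all genes (1266 of 19775). The 4 members were RSAD2 at 0.46 (95% interval 0.09 to 0.83), IFI27 at 0.33 (0.02 to 0.63), IFI6 at 0.27 (0.06 to 0.48) and IFI35 at 0.23 (0.01 to 0.45), with limma adjusted p from 0.708 to 0.773. RSAD2 and IFI27 lay within the range of the absent controls. The difference was positive for 23 of 31 members, against 54.6% of all genes, and its median was 0.07 against 0.01. In simulated data a change of 0.5 in the difference of responses was recovered for 42% of genes and one of 0.3 for 5%. The line difference in TMZ and the response of shp105 cells share the shp105 TMZ arrays, so for IFI6, IFI35 and IFIT2 they are not independent of each other.

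Other genes of the pathway placed the set in context, in lists also chosen with earlier results of these data known. None of 18 measured interferon ligand genes was called by limma in any of the 5 comparisons, and 17 of them, IFNB1 among them, had no group mean above the absent controls. At an unadjusted p under 0.05 there was 1 ligand gene, lower, in the response of shp105 cells, in the line difference in TMZ and in the difference of responses, and 0 in the others. That is 5.56% of the ligand genes, below the 16.3%, 31.9% and 6.4% of all genes in these comparisons. IFNB1, interferon beta, had group means of 3.04 to 3.23. Of 15 receptors, kinases and their regulators 2 were higher and 2 lower in shp105 cells with DMSO, and 1 was higher and 2 lower with TMZ. These shares, 26.7% and 20%, lay near the 19.9% and 21.1% of all genes called. STAT3, the factor downstream of IL-6 family receptors, was higher by 0.60 (SE 0.04, limma adjusted p = 1.78e-06) in DMSO and 0.52 (SE 0.04, limma adjusted p = 6.14e-06) in TMZ. IFNAR2, the signalling chain of the type I receptor, was lower, with differences of -0.26 (SE 0.07) and -0.23 (SE 0.07). JAK2 was higher by 0.36 and SOCS3, an inhibitor of JAK kinases, lower (-0.34) in DMSO, and SOCS1, another such inhibitor, was lower (-0.51) in TMZ. The median difference of the 15 genes was -0.09 in DMSO and -0.06 in TMZ.

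Of 15 nucleic acid sensing genes 2 were higher and 3 lower in DMSO and 3 were higher and 2 lower in TMZ, 33.3% in either treatment beside 19.9% and 21.1% of all genes. AIM2, the DNA sensor of an inflammasome, was lower, with differences of -1.24 (SE 0.07, limma adjusted p = 2.09e-07) in DMSO and -0.98 (SE 0.07, limma adjusted p = 1.59e-06) in TMZ, from group means of 9.18 and 9.14 in shControl cells. TRIM25, the ubiquitin ligase that activates RIG-I, was higher by 0.50 (SE 0.09) and 0.31 (SE 0.09). TLR3, an endosomal sensor of double-stranded RNA, was lower, with differences of -0.46 and -0.41 and with all group means within the range of the absent controls. MAVS, the adaptor of RIG-I and MDA5, was higher by 0.30 in DMSO, and STING1, the adaptor of cytosolic DNA sensing, by 0.35 in TMZ. IFI16, a nuclear DNA sensor, was lower (-0.30) in DMSO, and ADAR, an RNA-editing enzyme, was higher (0.17) in TMZ. The median over the 15 genes was -0.01 in DMSO and 0.00 in TMZ.

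Of 37 further interferon-induced genes 5 were higher and 4 lower in DMSO, and 8 were higher and 4 lower in TMZ, 24.3% and 32.4% beside 19.9% and 21.1% of all genes. PARP12, an antiviral ADP-ribosyltransferase, was higher by 0.75 (SE 0.10, limma adjusted p = 0.000148) in DMSO and 0.82 (SE 0.10, limma adjusted p = 7.21e-05) in TMZ. TRIM22, an interferon-induced gene that p53 also activates, was lower, with differences of -0.76 (SE 0.06) and -0.62 (SE 0.06). The guanylate-binding protein GBP2 differed by -0.71 (SE 0.10) and -0.48 (SE 0.10). The nuclear body protein SP100 was higher by 0.31 and 0.37. IFITM2, which blocks viral entry, was higher by 0.49 in TMZ. Its probe set, like those of IFNAR2, IFI16 and TNFSF10, has the suffix for shared probes that was described for RIGI. In the TMZ response of shp105 cells limma called 1 of the 37 (2.7%, beside 0.865% of all genes). This was TRIM22, which rose by 0.43 (SE 0.06, limma adjusted p = 0.00946). In shControl cells limma called 0, beside 0.369% of all genes. An unadjusted p under 0.05 was found for 4 (10.8%) in shControl cells, beside 11% of all genes. In shp105 cells it was 8 (21.6%, 18.9% higher), beside 16.3% of all genes (9.59% higher). The median over the 37 genes was 0.04 between the lines in DMSO and 0.08 in TMZ.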

How the data were processed

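RNA was measured on 12 arrays, 3 in each of 4 groups named from the sample titles. The authors deposited a log2 level for each probe set, made with RMA and Affymetrix Power Tools, per the submitters' processing notes, which give no versions. For build, annotation release and filters: not given in the sources used. Of 54675 probe sets 41097 had exactly 1 symbol in a platform annotation table, updated through Entrez identifiers to RefSeq symbols of GRCh38.p14, 1801 had several and 11777 none. Only the first kind was used, 1 probe set per gene by highest mean, which left 19775 genes.

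One limma fit of 4 group means (lmFit, eBayes) over all arrays gave the 5 comparisons, 2-sided, with Benjamini-Hochberg adjustment over all genes. Errors are that fit's standard errors. The number of arrays limits the precision. In simulated data a change of 0.5 was recovered for 64% of genes between the lines in DMSO, 61% in TMZ, and 70% and 72% in the TMZ responses of shControl and shp105 cells. At 0.3 it was 29%, 18%, 25% and 22%. Each simulation changed 100 of 19775 genes by each amount, far fewer than the 3937 and 4166 called between the lines. The adjustment is stricter where fewer genes change, so these shares do not give the sensitivity of the line comparisons. The members and lists were chosen with earlier results of these data known. Per-array values are given for genes called in any comparison, and other lists name up to 4 called genes per comparison by smallest p. TLR3 comes next in that order under both treatments and was named outside this rule. GBP2 in TMZ also comes next and is given beside its DMSO value. Same-numbered replicates were not treated as paired. The correlation of deviations from group means ran from -0.14 to 0.12 over 18 same-numbered pairs. Over 36 other pairs it ran from -0.20 to 0.26. Promoters are RefSeq's. R 4.3.3, limma 3.58.1, Python 3.11.15, pandas 2.3.3 and matplotlib 3.10.9 were used.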

Additional observations from a re-analysis of the deposited data

How the results depend on the processing

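For the probe set or mean of probe sets that each setting used for a gene, the 22 calls of a member in a comparison kept their direction in the alternatives run. Of the other probe sets of called genes, that of OAS3 in TMZ (-0.01) and 1 of XAF1 in DMSO (-0.05) had the opposite sign. The spike-in covariate gave 0 members between the lines in DMSO (9 as reported), 1 in TMZ (12 as reported) and 0 for the TMZ response of shp105 cells (1 as reported). The cause was not tested. Stricter thresholds lowered the counts by construction. An adjusted p under 0.01 left 5 in DMSO and 0 in the shp105 response, and a log2 difference of at least 0.5 left 3, 2 in TMZ and 0 in the shp105 response. For the shp105 response, median centring, array weights, only the compared groups and each probe set on its own also gave 0. Leaving out genes below the median level, IRF7 among them, gave 3 there and 1 in shControl cells. With trend and robust fitting eBayes gave 4 (IRF7, HERC5, IFI6, IFI35) and 1 (HERC5). Why the trend fit called more was not tested. Leaving out 1 array gave 6 to 11 members in DMSO, 9 to 13 in TMZ, 0 to 1 for the shp105 response and 0 for the other comparisons. With the replicate number as a block, 11 members were called in DMSO, 11 in TMZ and 0 in the shp105 response, where IRF7 had an adjusted p of 0.0949, and ISG15 in TMZ had 0.0634. The labels do not say whether equal numbers mark paired samples. For the difference of responses every alternative gave 0 members. Apart from the spike-in fit, the share of all genes called in these alternatives is not given here. Their member counts therefore do not tell whether the set or all genes moved. Dim probe sets limit what could be seen, since 7 of 31 genes lay within the range of the absent controls.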

Other observations

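TNFSF10, the death ligand TRAIL and 1 of the 37 further interferon-induced genes, was called in opposite directions between the lines. In shp105 cells it was higher with DMSO (0.25, SE 0.06, limma adjusted p = 0.00865) and lower with TMZ (-0.21, SE 0.06, limma adjusted p = 0.0252). Its group means, 3.08 to 3.35, lay within the range of the absent controls, and the difference of TMZ responses (-0.46, SE 0.08, limma adjusted p = 0.227) did not pass. It was chosen after its values were seen.

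Of the 31 genes 15 were read by 1 probe set and 16 by several, 51 probe sets in all. Between the lines the probe sets of a gene had mixed signs for 6 genes in DMSO and for 5 in TMZ. IFI44 is an example, with -0.04 and 0.20 in DMSO and 0.10 and -0.10 in TMZ, and PARP9 another, with -0.21 and 0.10 in DMSO and -0.22 and -0.08 in TMZ. Both were chosen after their values were seen. For IRF1 and SAMD9 both probe sets had the same sign under both treatments.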
